A study of Homo sapiens with 20 samples.

Results

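RUNX1-bound regions at places where the ends of several protein-coding genes meet were examined in THP-1, a human line grown from an acute monocytic leukemia. A bound region, or peak, counted as a multi-gene peak when it lay within 1 kb of a first or last base of at least 2 different protein-coding genes of the RefSeq table of GRCh38, a rule that uses position and no measured value. Of the 26642 peaks in the count table, 1357 (5.09%) were multi-gene peaks. The comparison peaks were the 5139 within 1 kb of an end of exactly 1 gene, called single-gene peaks here, and 20146 peaks lay near no gene end. The 1357 peaks made up 20.89% of all peaks near a gene end, touched 2660 genes and fell into 1328 different sets of genes, so that 58 of them shared their genes with another multi-gene peak and are not independent sites.

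All cells carried a doxycycline-inducible short hairpin RNA cassette and all received doxycycline, for 72 h per the study's methods. In knockdown cells the hairpin targeted PU.1, and in control cells it was a scramble sequence. Reads were counted in 6 control and 6 knockdown RUNX1 libraries, of which batch 1 (an experimental round) held 3 control and 2 knockdown and batch 2 held 3 control and 4 knockdown libraries. The study describes the libraries of a group as replicates of a cell line, so p-values measure the spread between preparations of 1 line under 1 hairpin each. The assay does not measure PU.1 itself, so the knockdown could not be checked in these libraries, and the 8 libraries made with an unspecific IgG were not analysed here. The question put to the data was whether RUNX1 signal at multi-gene peaks changed when PU.1 was lowered, and by how much beside single-gene peaks.

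RUNX1 is a transcription factor of blood cells that binds DNA with its partner CBFB at the letters TGTGGT and close variants. PU.1, encoded by SPI1, is an ETS-family factor that directs myeloid development, binds at GAGGAA and is a known partner of RUNX1. A divergent, or bidirectional, promoter lies between neighbouring genes that start close together on opposite strands and are read away from each other. Such promoters are usually rich in CG and serve many genes that every cell uses, among them genes of DNA repair, translation and mitochondria, so a factor bound there lies at the start of a pair of genes at once.

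Not every multi-gene peak lay at a divergent pair. Strands were known for 15843 of the 20037 protein-coding genes and for 2239 of the 2660 genes near multi-gene peaks. Of the 976 peaks near exactly 2 genes with both strands known, 639 lay at divergent starts. A further 221 lay where the start of a gene met the last end of its neighbour. Of the rest, 37 lay between 2 last ends, 35 at 2 starts of the same strand and 3 at 2 last ends of the same strand. At 41 peaks both ends of a gene lay within 1 kb. The strand of at least 1 gene was not given at 307 peaks, and 74 peaks lay near 3 or more genes, the most being 23 at the protocadherin gamma cluster beside DIAPH1. In 155 of the 639 divergent pairs the gene bodies overlapped at their starts, and in the others the starts lay apart. The results below are therefore given by arrangement, and the whole set is called by its rule.

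The following windows of 300 bases, 250 before to 50 after a start, are examples of promoters at multi-gene peaks. They were picked for strong signal or large change and not as typical ones. NFYC, DUS2 and CAB39 lay at divergent starts, and IGFLR1 starts beside the last end of its neighbour. At FLOT1 the strand of the neighbour was not given. The windows are those of NFYC, at the strongest multi-gene peak, of IGFLR1, DUS2 and CAB39, at large losses, and of FLOT1, at a large gain. Each start lay inside its peak. The sequences are RefSeq's for GRCh38.p14, written 5′ to 3′ on the strand of the gene, and capitals mark the letters TGTGGT or TGCGGT (RUNX), GAGGAAGT (the PU.1 type of ETS site), CCGGAAGT (the common ETS core) and AAGATGGC (YY1), none of which holds another, on either strand.
NFYC, chr1:40691454-40691753, plus strand: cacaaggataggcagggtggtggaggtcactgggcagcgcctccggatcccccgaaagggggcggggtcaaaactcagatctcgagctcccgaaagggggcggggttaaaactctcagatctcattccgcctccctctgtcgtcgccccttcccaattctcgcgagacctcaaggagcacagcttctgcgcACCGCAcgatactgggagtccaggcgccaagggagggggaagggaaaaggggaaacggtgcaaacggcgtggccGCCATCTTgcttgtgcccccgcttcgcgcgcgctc
IGFLR1, chr19:35742403-35742702, minus strand: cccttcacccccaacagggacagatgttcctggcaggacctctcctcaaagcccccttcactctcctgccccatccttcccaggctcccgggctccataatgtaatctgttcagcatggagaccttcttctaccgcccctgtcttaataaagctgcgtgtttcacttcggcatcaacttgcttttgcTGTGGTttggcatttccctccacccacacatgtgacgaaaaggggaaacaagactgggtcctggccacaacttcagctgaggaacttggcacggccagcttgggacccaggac
DUS2, chr16:68023034-68023333, plus strand: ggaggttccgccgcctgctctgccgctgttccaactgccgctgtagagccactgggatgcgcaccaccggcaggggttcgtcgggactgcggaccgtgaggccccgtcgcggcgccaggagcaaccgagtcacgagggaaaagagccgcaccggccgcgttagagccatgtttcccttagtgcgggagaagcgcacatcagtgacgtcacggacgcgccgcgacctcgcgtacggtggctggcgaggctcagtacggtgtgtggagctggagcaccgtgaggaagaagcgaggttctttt
CAB39, chr2:230712592-230712891, plus strand: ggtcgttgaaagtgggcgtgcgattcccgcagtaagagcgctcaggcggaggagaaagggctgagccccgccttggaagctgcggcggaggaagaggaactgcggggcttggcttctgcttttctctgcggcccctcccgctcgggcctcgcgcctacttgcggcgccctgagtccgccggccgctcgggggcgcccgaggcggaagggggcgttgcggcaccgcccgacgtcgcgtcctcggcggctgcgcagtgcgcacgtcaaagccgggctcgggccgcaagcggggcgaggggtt
FLOT1, chr6:30742638-30742937, minus strand: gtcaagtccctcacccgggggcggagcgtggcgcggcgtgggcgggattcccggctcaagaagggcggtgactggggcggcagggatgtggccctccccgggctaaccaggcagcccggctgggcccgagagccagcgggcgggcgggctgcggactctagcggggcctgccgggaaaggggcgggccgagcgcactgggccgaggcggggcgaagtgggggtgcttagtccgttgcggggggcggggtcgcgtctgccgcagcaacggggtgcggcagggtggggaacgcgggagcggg
The NFYC window held ACCGCA, the reverse of TGCGGT, and GCCATCTT, the reverse of AAGATGGC. The IGFLR1 window held TGTGGT, at position 188 of the window, and its start lay 15 bp from the centre of the peak. The DUS2, CAB39 and FLOT1 windows held none of the marked letters. The GC content was 66.0% in DUS2, 72.3% in CAB39 and 77.0% in FLOT1, against 63.7% in NFYC and 55.3% in IGFLR1.

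Across promoters, 1771 starts within 1 kb of a multi-gene peak had a window in the table. TGTGGT stood in 10.4% of them, against 1749 of all 15843 windows and 11.2% of 3523 windows at single-gene peaks. The variant TGCGGT stood in 13.8% at multi-gene peaks, 8.72% of all windows and 494 of the 3523 at single-gene peaks, and either form in 23.1%, 18.9% and 23.7%. The common ETS letters CCGGAAGT stood in 15.6% of windows at multi-gene peaks, in 9.99% at single-gene peaks and in 6.16% of all windows, whereas the PU.1-type letters GAGGAAGT stood in 2.32%, 2.72% and 2.50%. The YY1 letters AAGATGGC stood in 7.51% at multi-gene peaks, 5.93% at single-gene peaks and 3.86% of all windows. At multi-gene peaks whose signal was called lost, described below, the YY1 letters stood in 48 of 402 windows (11.9%). At the other multi-gene peaks they stood in 85 of 1369 (6.21%). TGTGGT stood in 35 of 402 (8.71%) at lost peaks against 150 of 1369 at the others. In the same order, CCGGAAGT stood in 17.9% against 14.9%, GAGGAAGT in 2.24% against 2.34% and TGCGGT in 10.2% against 14.8%. Motifs of the CCAAT box, GC box, NRF1 and TATA box were also searched. They stood in 40.3%, 68.9%, 4.48% and 6.22% at lost peaks, against 40.5%, 71.0%, 3.29% and 4.53%. The YY1 contrast is thus picked from several, and these contrasts were not tested. Windows of a pair can overlap, so a match can count for both genes. The median GC content was 64.3% in windows at multi-gene peaks, 64.7% at single-gene peaks and 62.7% over all windows. A match of letters is a description of the window and not a bound site.

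Control libraries held between 630247 and 1199004 reads in peaks and knockdown libraries between 938745 and 1719840, and the median multi-gene peak had a normalised count of 50.1 (reads divided by the size factor of the library) and a width of 1431 bp, against 41.9 and 1258 bp at single-gene peaks. Per kb of width the medians were 33.9 and 32.5. 1 library stood apart: control replicate 1 had 8.65% of its in-peak reads in multi-gene peaks, against 7.35% to 7.62% in the other 5 control libraries and 6.33% to 7.27% in the knockdown libraries. The main counts, the library scores and several named peaks where it stood far above the other controls are given with and without it.

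RUNX1 signal was called lost at more multi-gene peaks than gained. The share lost was near that of all peaks, while the share gained was far below it. In knockdown against control, 318 of the 1357 peaks (23.4%) were called lost and 41 (3.02%) gained (DESeq2 with batch as covariate, Benjamini-Hochberg adjusted p under 0.05 over all 26642 peaks and a fold change over 1.1). Over all peaks 42.0% were called, 20.7% lost and 21.3% gained, and over the 5139 single-gene peaks 17.8% lost (915) and 7.02% gained (361). The median log2 fold change was -0.20 at multi-gene peaks (interquartile range -0.39 to -0.04), -0.16 at single-gene peaks and 0.07 at peaks near no gene end. Values were below 0 at 79.4% of multi-gene peaks and 70.5% of single-gene peaks. Changes were small: the median lost peak had a log2 fold change of -0.51, and 14 multi-gene peaks fell and 5 rose by more than 2-fold, against 8.20% and 8.86% of all peaks. Without control replicate 1, 238 were lost (17.5%) and 42 gained, beside 13.3% and 6.85% of single-gene peaks. The difference between the classes was described by these shares and by the values per library below, and no test of it was made.

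The arrangement of the genes went with the direction. At divergent starts 135 of 639 peaks were lost (21.1%) and 10 gained (1.56%), with a median log2 fold change of -0.21, while at single-gene peaks near the start of their gene 16.5% of 3695 were lost and 4.01% gained, with a median of -0.17. Without control replicate 1 the losses were 102 of 639 at divergent starts and 11.7% at single starts. Where a start met a last end, 49 of 221 were lost (22.2%) and 11 gained (4.98%). Between 2 last ends, 6 of 37 were lost and 7 gained, with a median of -0.01, and single-gene peaks at a last end stood likewise at 17.8% lost and 25.8% gained of 473, with a median of 0.05. Peaks near no gene end had 21.3% lost and 26.1% gained. At 2 starts of the same strand 13 of 35 were lost and 0 gained.

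**Figure D1:**
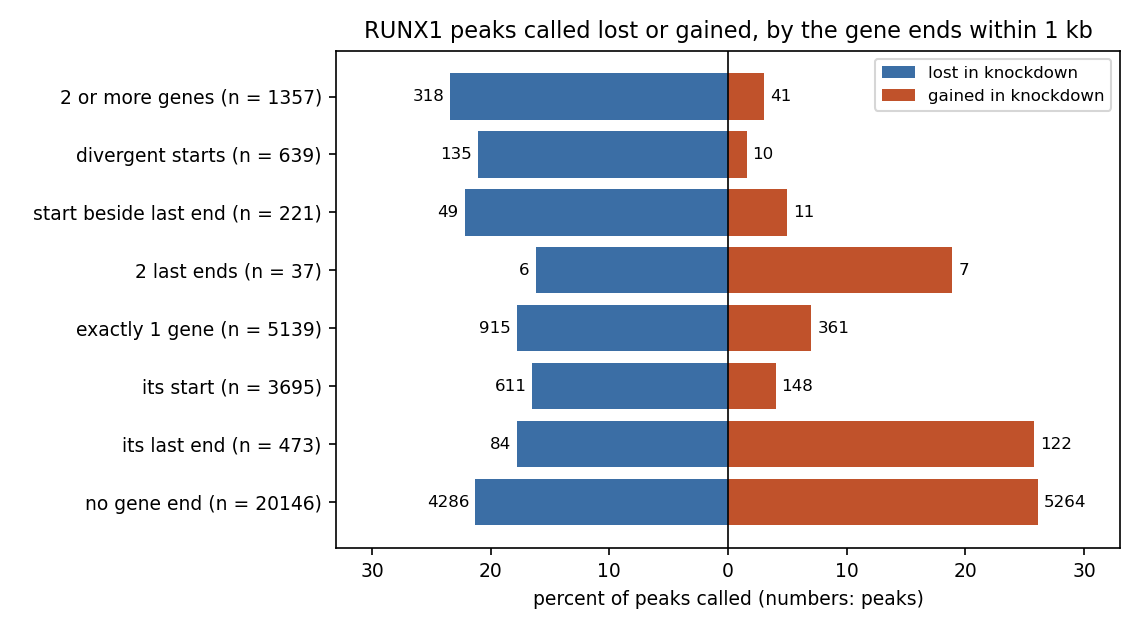
Percent of RUNX1 peaks called lost (bars to the left) or gained (bars to the right) in knockdown against control, by the gene ends within 1 kb, with the number of peaks at the end of each bar. In the 8 classes drawn, losses stand at 16.2% to 23.4%, while gains run from 1.56% at divergent starts to 26.1% at peaks near no gene end.

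Among divergent pairs the space between the starts was also compared. Of the 155 pairs with overlapping bodies 24.5% of peaks were lost, of 111 with starts less than 100 bp apart 13.5%, of 251 with starts at least 100 and less than 300 bp apart 23.9%, and 22 of 122 with wider spacing. The median log2 fold changes were -0.22, -0.22, -0.23 and -0.16, and no more than 4 peaks of a class were gained. Gains also went with the number of gene ends inside the peak. Of 946 multi-gene peaks that held at least 2 ends, 12 were gained (1.27%) and 244 lost (25.8%). Of the 115 that held none of the ends, 16 were gained (13.9%) and 15 lost (13.0%). Those holding no end were also narrower and weaker, with medians of 902 bp and a mean count of 30.5, against 1535 bp and 53.3. Whether width or strength accounts for the difference was not tested. Around the limit of the rule, the 81 multi-gene peaks whose second gene end lay over 800 and up to 1000 bp away had 17 losses and 3 gains. The 76 peaks just outside, with that end over 1000 and up to 1200 bp away, had 13 losses and 9 gains. The median log2 fold change was -0.121 inside the limit and -0.165 outside it, so by the median the peaks outside were shifted down more.

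**Figure D2:**
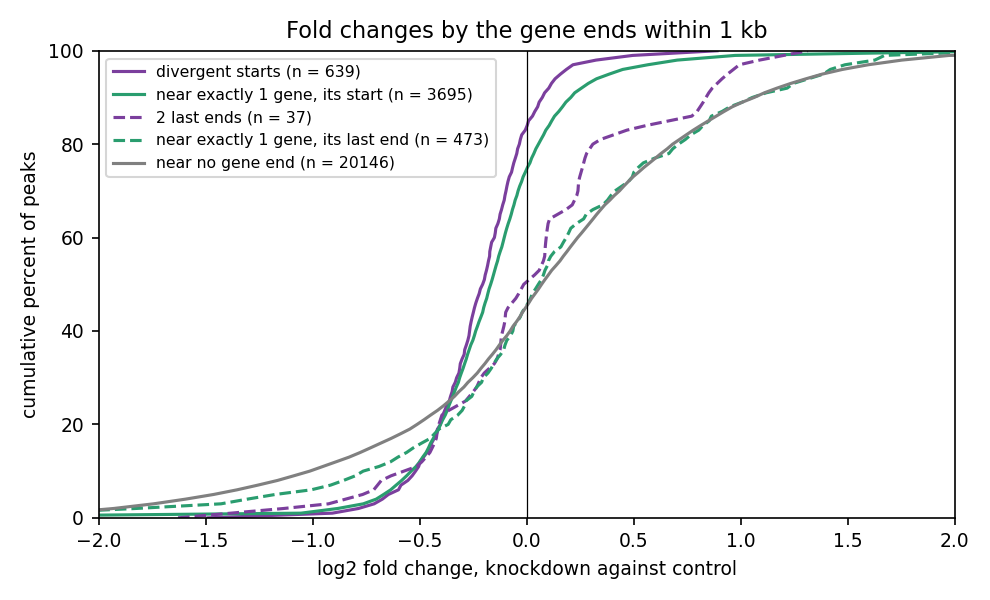
Cumulative percent of peaks (vertical axis) against the log2 fold change of knockdown over control (horizontal axis) for 5 classes of gene ends within 1 kb. The curves of divergent starts and of single starts lie to the left and steep, with medians of -0.21 and -0.17, and those of last ends lie near the curve of peaks near no gene end, with medians of -0.01, 0.05 and 0.07.

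Strength of signal differed between the classes, so losses were also counted within quartiles of the mean normalised count of multi-gene peaks. In the lowest quartile 61 of 339 multi-gene peaks were lost, against 13.4% of single-gene peaks of the same strength, and in the highest 27.6% against 19.8%. The shares in between were 22.1% against 20.7% and 26.0% against 20.5%. Gains were 4.42% against 9.49% in the lowest quartile and 3.82% against 6.82% in the highest.

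Library by library, the mean log2(normalised count + 1) of multi-gene peaks exceeded that of single-gene peaks by 0.25 to 0.28 in the 6 control libraries and by 0.20 to 0.21 in the 6 knockdown libraries. In batch 1 the control libraries stood at 0.252 to 0.284 and the knockdown libraries at 0.199 and 0.202, and in batch 2 at 0.272 to 0.280 and 0.201 to 0.214. The groups did not overlap in either batch, and control replicate 1 was the lowest of the controls. With batch accounted for, the difference of knockdown minus control was -0.069 with a residual SD between libraries of 0.009, and -0.072 without control replicate 1. The same measure for divergent starts over single starts differed by -0.057 (residual SD 0.029). There control replicate 1, at 0.206, lay below both knockdown libraries of its batch, at 0.214 and 0.223, and without it the difference was -0.069 (residual SD 0.015). Beside peaks near no gene end, multi-gene peaks stood 1.21 higher in control replicate 1 and 0.79 to 0.91 higher in the other control libraries, against 0.46 to 0.78 in knockdown libraries.

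**Figure D3:**
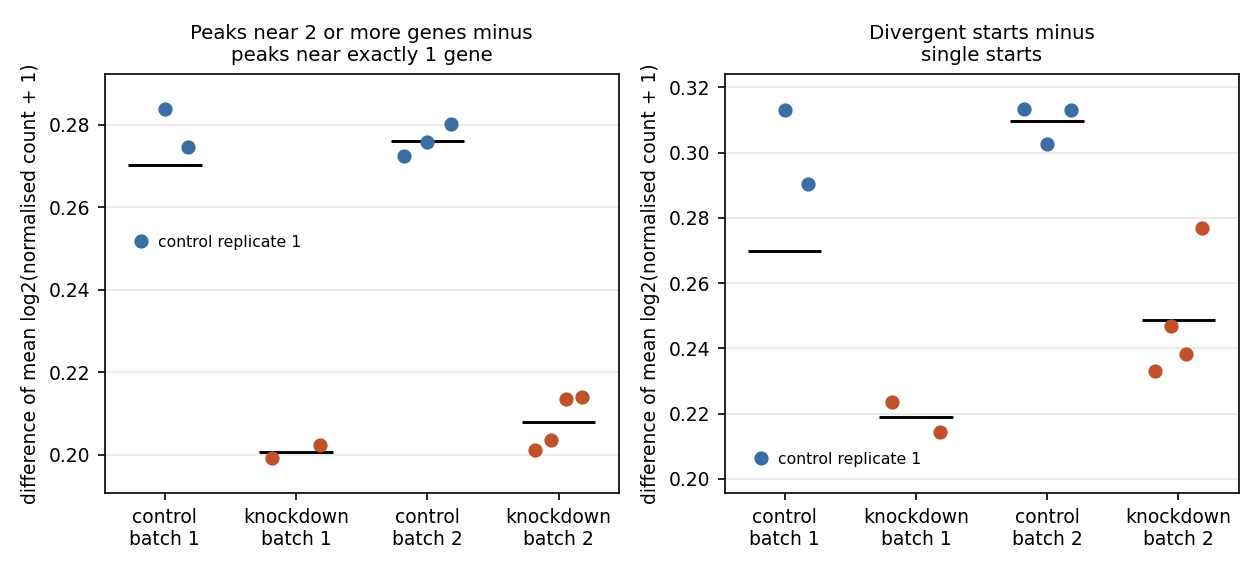
Each point is 1 library: the mean log2(normalised count + 1) of multi-gene peaks minus that of single-gene peaks (left), and of peaks at divergent starts minus peaks at a single start (right), by batch and group, with a bar at the mean. On the left the knockdown libraries (0.199 to 0.214) lie below every control library (0.252 to 0.284), and on the right control replicate 1, at 0.206, lies below both knockdown libraries of batch 1.

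Within batch 1 alone, 13 multi-gene peaks were lost and 7 gained (DESeq2), where 6.61% of all peaks were lost and 5.38% gained, and without control replicate 1 the 20 calls became 7. Within batch 2, 137 were lost and 24 gained, where 13.1% of all peaks were lost and 12.8% gained. Without any model, 143 multi-gene peaks (10.5%) had every knockdown library below every control library in both batches and 26 (1.92%) had them above, against 13.9% and 14.4% of all peaks. The median log2 fold changes were -0.19 and -0.21, beside -0.15 and -0.15 at single-gene peaks. Of the 359 multi-gene peaks called over both batches, 357 had the same sign in each, as did 11172 of the 11185 called among all peaks. These calls came from a fit to both batches, so agreement in sign is largely set by the choice of peaks. Calls made within each batch alone coincided at 13 multi-gene peaks. A test of the difference between the batches called 0 multi-gene peaks after adjustment, and 0.00% of all peaks. At an unadjusted p under 0.05, DESeq2 gave 29 multi-gene peaks (2.51% of all peaks passed), and edgeR gave 0 adjusted and 64 unadjusted.

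**Figure D4:**
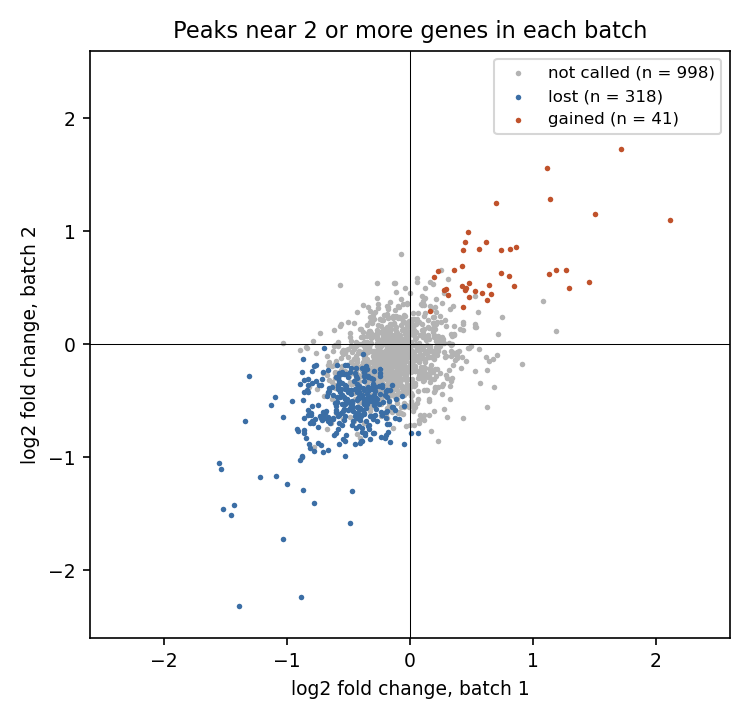
Each point is 1 of the 1357 multi-gene peaks, with its log2 fold change of knockdown over control in batch 1 (horizontal) and in batch 2 (vertical), coloured by the call over both batches. The 318 lost peaks lie mostly at lower left and the 41 gained peaks at upper right, and 357 of these 359 have the same sign in both batches. The calls were made over both batches, so this agreement is largely set by the choice of peaks.

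Losses were not spread evenly over the chromosomes. On chromosome 11, 46 of 81 multi-gene peaks were lost (median log2 fold change -0.46), on chromosome 8, 26 of 46 (-0.44), on chromosome 20, 14 of 32 (-0.39) and on chromosome 15, 15 of 41 (-0.32), whereas on chromosome 10 it was 1 of 38 (-0.11) and on chromosome 9, 3 of 55 (-0.18). The medians of single-gene peaks were -0.35 on chromosome 11, -0.33 on 8, -0.29 on 20 and -0.38 on 15. They were -0.03 on chromosome 10 and -0.17 on 9. Of single-gene peaks, 71 of 209 were lost on chromosome 11, 80 of 189 on 8 and 38 of 133 on 20. On chromosome 15 it was 63 of 152, on chromosome 10 it was 15 of 192 and on chromosome 9 it was 14.9%. The share lost was thus higher at multi-gene peaks on chromosomes 11, 8 and 20. It was higher at single-gene peaks on chromosomes 15 (41.4% against 36.6%), 10 and 9. With each fold change centred on the median of all peaks in its window of 10 Mb, 247 multi-gene peaks were lost and 48 gained. Of these losses, 201 were lost also before. So centred, 18.2% of multi-gene and 14.9% of single-gene peaks were lost. The difference in share was thus 3.3 percentage points, against 5.6 before. Why whole regions shifted was not tested. For peaks named below on chromosomes 8, 11, 15 and 20 the median of the window is given.

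The strongest multi-gene peak by normalised count lay between NFYC, a subunit of the CCAAT-binding factor NF-Y, and RIMS3, a synaptic protein (chr1:40690490-40693450), divergent genes whose bodies overlap by 362 bp at their starts. Normalised counts ran from 619 to 781, with a median of 711, in control libraries and from 476 to 571, with a median of 531, in knockdown libraries. Every knockdown library lay below every control library, and the log2 fold change was -0.40 (SE 0.07, DESeq2 adjusted p = 4.74e-07). The next 5 by strength did not pass the test. They lay at CSNK2B/GPANK1 (log2 fold change -0.10), AP4B1/DCLRE1B (-0.18, adjusted p = 0.0629), ELANE/PRTN3 (0.14, adjusted p = 0.157), LTA/NFKBIL1 (0.08) and ERAP1/LNPEP/LOC124901030 (-0.17). ELANE and PRTN3 encode neutrophil granule proteases, and their peak held 195 to 232 in control and 209 to 250 in knockdown libraries, which overlap.

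The largest gains lay at gene pairs of several kinds, none of them known divergent starts. They were taken from the 20 gained peaks with a mean count of at least 20 and every knockdown library above every control library of its batch. At ABCF2-H2BK1/H2BK1, a read-through transcript and its histone gene that share a last end (chr7:151206884-151207568), control libraries ran from 1.15 to 18.2, with a median of 10.2, and knockdown libraries from 26.1 to 41.4, with a median of 35.1, a log2 fold change of 1.73 (SE 0.30). At DDAH2/MPIG6B, between the last ends of an arginine-metabolism gene and of a platelet receptor gene, the counts were 11.5 to 27.3 (median 18.5) and 37.7 to 61.9 (median 46.5), a log2 fold change of 1.31 (SE 0.22, adjusted p = 3.55e-08). At CGB3/SAXO3 they were 22.1 to 33.5 (median 27.4) and 53.3 to 78.0 (median 66.0), a log2 fold change of 1.21 (SE 0.18, adjusted p = 4.74e-10). CGB3, a subunit of chorionic gonadotropin, has near-identical neighbouring copies, so reads there may be split between them. In all of these the groups did not overlap.

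Smaller gains of the same rule lay at FAAP24/RHPN2 (0.82), PERM1/PLEKHN1 (0.78), ZNF324/ZNF446 (0.77), FLOT1/IER3 (0.71) and IZUMO1/RASIP1 (0.70). FAAP24 belongs to the Fanconi anemia repair complex, and its peak, which held the last ends of both genes, rose from 46.2 ± 2.5 to 82.1 ± 5.5 (SD, n = 6). ZNF324/ZNF446, a pair of zinc finger genes, had the strongest of these peaks, at 66.8 to 94.9 in control and 119.8 to 157 in knockdown libraries (adjusted p = 1.74e-08). The peak at FLOT1, a lipid-raft protein whose window is printed above, and IER3, an early response gene, ran from 27.4 to 40.3 in control and from 40.3 to 72.4 in knockdown libraries, so that the highest control library of batch 1 and the lowest knockdown library of batch 2 stood side by side.

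**Figure D5:**
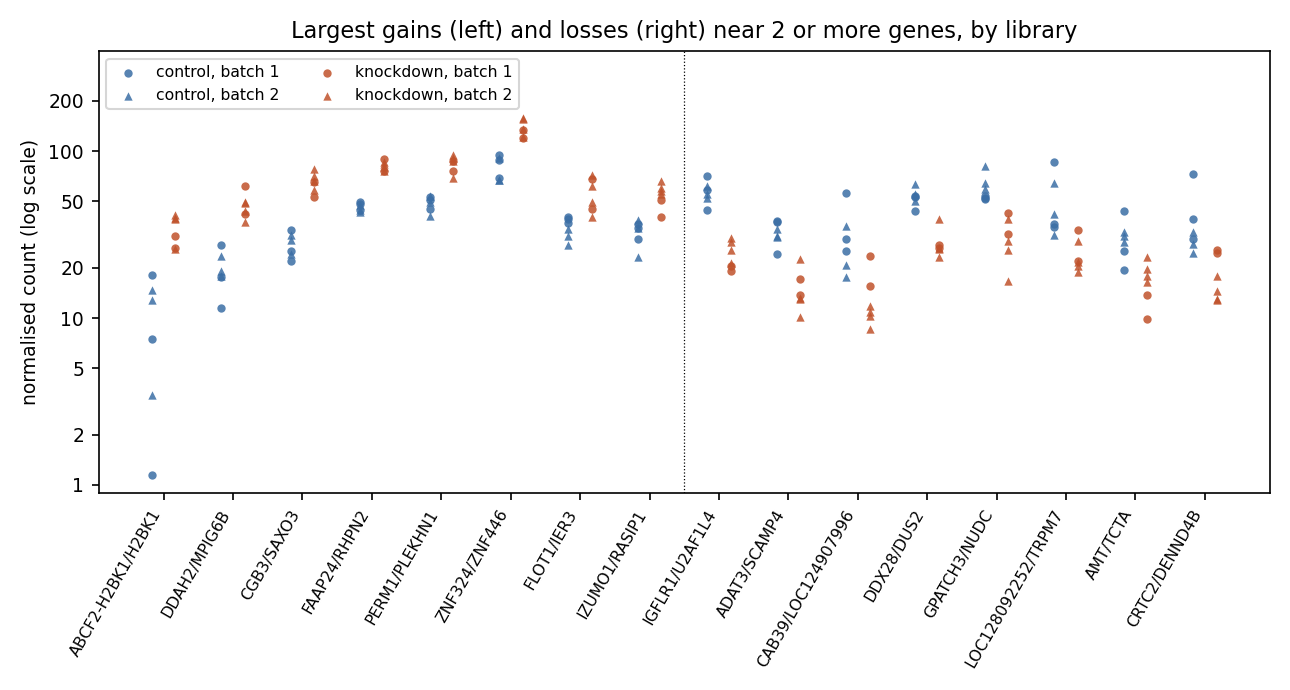
Normalised count (log scale) in each of the 12 libraries at the 8 largest gains (left of the dotted line) and the 8 largest losses (right) among multi-gene peaks, with circles for batch 1 and triangles for batch 2. In each peak, every knockdown library lies beyond every control library of its own batch, by the rule that chose them.

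The 8 largest losses were taken by the same rule from 125 lost peaks. At IGFLR1/U2AF1L4, a cell-surface receptor gene and a splicing-factor gene (chr19:35741877-35742996), control libraries ran from 44.2 to 71.4, with a median of 57.1, and knockdown libraries from 19.2 to 30.4, with a median of 23.5. All knockdown libraries lay below all control libraries, and the signal fell by 1.28 on the log2 scale (SE 0.19, adjusted p = 1.64e-10). The start of IGFLR1, whose window with TGTGGT is printed above, lay 12 bp from the last end of its neighbour. At ADAT3/SCAMP4, genes of a tRNA-editing subunit and of a membrane-trafficking protein, counts were 24.2 to 38.2 in control and 10.2 to 22.6 in knockdown libraries, a log2 fold change of -1.15 (SE 0.24). At the divergent starts of DDX28, an RNA helicase of mitochondria, and DUS2, a tRNA-modifying enzyme, 52 bp apart, they were 43.8 to 63.2 (median 53.6) and 23.1 to 39.2 (median 26.2), a log2 fold change of -0.98 (SE 0.18, adjusted p = 5.61e-07). The groups did not overlap at these peaks.

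CAB39, a scaffold of the LKB1 kinase complex, overlaps the divergent LOC124907996 by 484 bp at the start. The peak there ran from 17.6 to 55.9 in control libraries, the highest being control replicate 1, and from 8.59 to 23.7 in knockdown libraries, a log2 fold change of -1.09 (SE 0.27, adjusted p = 0.000285). At the divergent starts of GPATCH3 and NUDC, a dynein regulator, the change was -0.47 in batch 1 and -1.30 in batch 2 (-0.95 over both, SE 0.19). The others were LOC128092252/TRPM7 (-0.95), AMT/TCTA (-0.94) and CRTC2/DENND4B (-0.94), where TRPM7 is an ion channel with a kinase domain, AMT an enzyme of glycine cleavage and CRTC2 a CREB coactivator. At CRTC2/DENND4B control replicate 1 stood at 72.8 and the other control libraries at 24.6 to 39.1, against 12.7 to 25.7 in knockdown libraries. Without that library the changes were -0.76 there, -0.94 at CAB39 and -0.74 at TRPM7, whose chromosome 15 window stood at -0.21, and all 3 were still called.

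The 10 gained peaks at divergent starts are named here after their values were seen. BST2, the antiviral protein tetherin, and MVB12A, an ESCRT subunit, start 111 bp apart (chr19:17404571-17406996). Their peak held 88.5 to 145, with a median of 100.4, in control and 154 to 184, with a median of 163, in knockdown libraries, with no overlap, a log2 fold change of 0.65 (SE 0.12, adjusted p = 2.85e-07). At HSPA1A/HSPA1L, heat shock proteins of the HSP70 family, counts were 29.5 to 59.8 in control and 64.1 to 74.4 in knockdown libraries, also with no overlap (log2 fold change 0.69, SE 0.16). HSPA1A has a near-identical copy nearby, so its reads may be split. CCDC122/LACC1 (0.56), where LACC1 is a macrophage metabolic regulator, and LOC124900214/TRERF1 (0.54) kept their call, as did the peaks at BST2 and HSPA1A, under each of the alternative settings of the fit (other scalings, designs, filters and leaving out 1 library at a time). ERBB2/PGAP3 (0.89) and DNAJC7/NKIRAS2 (0.87) kept it in the 19 settings that included them. The filter of at least 10 counts in every library left both out. Groups overlapped at ERBB2/PGAP3 (6.50 to 25.3 in control, 20.4 to 36.8 in knockdown), at DNAJC7/NKIRAS2 (6.50 to 23.2 and 21.1 to 31.9) and at CCDC122/LACC1. Neither ERBB2/PGAP3 nor DNAJC7/NKIRAS2 was called within a batch alone. The other 4, DYNC2I2/SET, USB1/ZNF319, NAB2/NEMP1 and CDC42SE1/MLLT11, had log2 fold changes of 0.23 to 0.80 and kept the call in 9 to 12 of the 19 or 20 settings.

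Between 2 last ends, the 7 gained peaks had log2 fold changes of 0.49 to 1.31 and the 6 lost ones of -0.41 to -1.63. DDAH2/MPIG6B carried a peak of each kind: beside the gain described above, an adjacent peak at chr6:31727089-31728464 fell from 51.4 ± 8.5 to 31.0 ± 4.3 (SD, n = 6, log2 fold change -0.72, SE 0.18, adjusted p = 0.000333). The largest of these losses was at NCOA5/SLC12A5, a coregulator gene and a neuronal chloride transporter gene, where counts were 15.6 to 31.2 in control and 3.30 to 12.5 in knockdown libraries (log2 fold change -1.63, SE 0.34, mean count 13.7, chromosome 20 window at -0.08). SYNGR2/TK1, with the thymidine kinase gene of the S phase, fell from 83.9 ± 9.9 to 53.4 ± 8.0 (SD, n = 6, log2 fold change -0.67, SE 0.14).

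Among 22 bidirectional pairs known from textbooks, 11 carried multi-gene peaks, 12 in all, of which 4 were lost and 0 gained (33.3% lost, beside 20.7% of all peaks and 23.4% of multi-gene peaks, median log2 fold change -0.19). ATM, the kinase of the DNA damage response, and NPAT, a histone gene activator, start 429 bp apart, and their peak held 65.7 to 112 in control and 52.1 to 78.4 in knockdown libraries, which overlap in batch 2 (-0.56, SE 0.14, adjusted p = 0.000439). It lies on chromosome 11 in a window whose median was also -0.56, and centred on that window the call was lost. MCM4/PRKDC, a subunit of the replicative helicase and the DNA-dependent protein kinase, changed by -0.46 (SE 0.14, adjusted p = 0.00279), with 208 in control replicate 1 beside 87.9 to 142 in the other control libraries and a change of -0.35 without it, in a window of chromosome 8 with a median of -0.26, and its call too was lost when centred. The others called were PSMB9/TAP1 (-0.46, adjusted p = 0.0348) and PDCD10/SERPINI1 (-0.42, adjusted p = 0.0212), which kept the call in 8 and 13 of 20 settings. Centred on their windows, none of the 4 losses kept its call. Among the strong pairs that did not pass, BRCA2/ZAR1L held 143 to 179 in control and 130 to 175 in knockdown libraries (log2 fold change -0.07), and MRPS12/SARS2 stood at 0.11.

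Gene groups were then counted, each by its multi-gene peaks. Of 23 peaks at tRNA synthetases and translation factors 10 were lost and 0 gained, of 27 at cytosolic ribosomal proteins 10 and 0, of 26 at RNA polymerase and general transcription genes 9 and 0, of 53 at splicing and RNA processing genes 16 and 0, and of 75 at mitochondrial ribosome and respiratory chain genes 21 and 1. The median log2 fold changes were -0.32, -0.29, -0.28, -0.26 and -0.21, beside -0.20 over all multi-gene peaks and -0.02 over all 26642 peaks. Single-gene peaks of the same groups had 14 of 47, 10 of 47, 11 of 48, 18 of 73 and 14 of 80 lost. Groups with shares below 23.4% were DNA replication and repair (8 of 42 lost, 1 gained), cell cycle and mitosis (5 of 24), zinc finger genes (6 of 41, 2 gained), solute carriers (6 of 37, 1 gained) and autophagy and lysosome (2 of 18). Shares were also below 23.4% in the smaller groups of proteasome genes (3 of 14, 21.4%) and clustered histone genes (2 of 9, 22.2%). The same held for apoptosis genes (2 of 13, 15.4%) and chromatin regulators mutated in leukemia (1 of 7, 14.3%), and these groups had 0 gains. No test of a group as a whole was made, and a peak near genes of several groups counts in each.

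In translation, the peak at BANF1, a chromatin-binding protein, and EIF1AD fell from 51.1 ± 11.9 to 27.2 ± 4.8 (SD, n = 6, log2 fold change -0.84, SE 0.19) in a chromosome 11 window with a median of -0.35. LSM2/VARS1, with the valine tRNA synthetase gene, changed by -0.58 (SE 0.17, adjusted p = 0.00241) and kept its call under every alternative. At ribosomal protein genes RDH10/RPL7 changed by -0.58 (SE 0.14) in a chromosome 8 window at -0.21, and RPL4/ZWILCH by -0.55 (SE 0.14, adjusted p = 0.000401), with counts at RPL4/ZWILCH of 70.3 to 94.0 in control and 41.6 to 63.9 in knockdown libraries, which do not overlap (window at -0.06). At POLR1C, a subunit shared by RNA polymerases I and III, and YIPF3 the change was -0.80 (SE 0.17, adjusted p = 9.1e-06), and at IGHMBP2/MRPL21, with a mitochondrial ribosome gene, -0.88 (SE 0.21) in a window at -0.35, or -0.79 without control replicate 1. BRIX1/RAD1, with a checkpoint clamp subunit, changed by -0.44 (SE 0.11), and CENPN/CMC2, with a centromere protein, by -0.52 (SE 0.14). ATG13/HARBI1, with a subunit of the complex that starts autophagy, changed by -0.83 (SE 0.17) in a window at -0.29. Control replicate 1 held 148.1 at RDH10/RPL7, where the other controls held 86.7 to 110.7. At ATG13/HARBI1 it held 85.8, where they held 43.4 to 68.0. Both peaks kept their call in all 20 settings, among them the fit without that library.

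Immune genes were counted in 2 small groups, and several of the calls depended on the setting. Of 13 peaks at antigen presentation and interferon genes 6 were lost (46.2%) and 0 gained (median log2 fold change -0.29), where 20.7% of all peaks were lost and 21.3% gained. Of 18 single-gene peaks of the group 7 were lost. At PSMB8, an immunoproteasome subunit, and TAP1, a peptide transporter for class I antigens, the peak (chr6:32842350-32846051) held 139.6 to 181, with a median of 165, in control and 68.9 to 119, with a median of 105, in knockdown libraries. The groups did not overlap, and the log2 fold change was -0.69 (SE 0.12, adjusted p = 1.25e-07). PARP10/SPATC1 (-0.82), B2M/PATL2 (-0.78), with the light chain of class I molecules, and CDHR5/IRF7 (-0.70), with an interferon regulator, kept their call under every alternative, and stood in windows of -0.19 to -0.24. TAPBP/ZBTB22 changed by -0.35 (adjusted p = 0.0157) and lost its call in 5 of 20 settings, and PSMB9/TAP1, given above, lost it in 12, both of them also when centred on windows. Of the 6 losses, 2 lay near TAP1. CIITA/CLEC16A, with the activator of class II genes, did not pass (-0.03).

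Of 8 multi-gene peaks at myeloid regulators and surface proteins, 4 were lost and 0 gained (median -0.31), and of 33 single-gene peaks of the group 11 were lost and 2 gained. The lost ones were CSF3R/MRPS15 (-0.39, adjusted p = 0.0366), with the G-CSF receptor, FCGR1A/H2BC18/LOC124904411 (-0.32, adjusted p = 0.0271), with an Fc receptor gene that has near-identical copies, CEBPD/SPIDR (-0.31, adjusted p = 0.0477) and ELF1/WBP4 (-0.31, adjusted p = 0.0305). These are small changes near the threshold: the calls at CSF3R, FCGR1A, CEBPD and ELF1 held in 11, 12, 6 and 10 of 20 settings, none of the 4 held under the replicate block or with at least 10 counts in every library, only that at CSF3R held when centred on windows (CEBPD stands in one at -0.26), and control and knockdown libraries overlapped at FCGR1A, CEBPD and ELF1. CD68/EIF4A1 (-0.41, adjusted p = 0.077), HCST/NFKBID/TYROBP (-0.30), FCGR2A/HSPA6 (-0.10) and ELANE/PRTN3 (0.14), the only one of the 8 above 0, did not pass.

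Of the 6 genes that the study followed, VMP1, a gene of autophagosome formation, lay at a multi-gene peak. VMP1 and PTRH2 start 224 bp apart in divergent orientation, and their peak held 37.7, 28.8 and 33.4 in control and 32.9 and 32.3 in knockdown libraries of batch 1. In batch 2 it held 48.6, 50.4 and 44.2 in control and 27.3, 26.4, 39.5 and 35.4 in knockdown libraries. The groups overlapped in batch 1 and not in batch 2, and the log2 fold change was -0.34 (SE 0.19, DESeq2 adjusted p = 0.142), with -0.01 in batch 1 and -0.56 in batch 2, so a change was not detected at this depth.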

How the data were processed

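RUNX1 chromatin immunoprecipitation followed by sequencing was done by the authors in THP-1 cells. Per the study's methods and the submitters' processing notes, the authors aligned reads with Bowtie2, removed duplicates, called peaks with MACS2 per condition and batch, kept peaks reproducible between batches, merged them and deposited raw counts per peak from featureCounts. Tool versions are not given in the sources used here. Peak widths stand beside the deposited counts. The notes name both GRCm38 and GRCh38 and the methods GRCm38. Peak coordinates were taken as GRCh38, since 24.4% of peaks lay within 1 kb of a RefSeq gene end and 5.48% to 7.58% did so when all peaks were moved by 10000 to 1000000 bp.

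Counts of all 26642 peaks were fitted with DESeq2 1.42.0 in R 4.3.3 (batch and genotype, adjusted p under 0.05, fold change over 1.1), with edgeR 4.0.16 as an alternative. Library scores used log2(normalised count + 1). Strand and promoter windows came from the RefSeq table of GRCh38.p14. Named peaks were the 6 strongest, the 8 largest gains and losses with a mean count of at least 20 that did not overlap within batches, the 4 textbook pairs with the highest counts, the peak at a study gene, and the peak with the smallest p of each gene list. Windows were taken from the largest named gains and losses whose promoters had a window, plus NFYC. Those of ZNF446 and RASIP1, at named gains, are not printed. Of the textbook pairs, 1 is not reported here. Further called peaks were chosen after their values were seen. Members and lists were chosen with earlier results of these data known. The fit was tested on simulated data in which 200 of 26642 peaks were changed by 2-fold, up or down, without a batch effect. Of them 69% were called by DESeq2, beside 6 wrong calls, and 74.5% by edgeR, beside 13. Most changes reported above are smaller than 2-fold, so these shares do not tell how often such changes are detected. No 2 libraries of a group differed by as little as sampling noise (chi-square per degree of freedom 1.25 to 2.98). IgG libraries were not used here.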

Additional observations from a re-analysis of the deposited data

Results flagged for a closer look

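In each group of 6 libraries the highest or lowest library was set against the others by Dixon's criterion, which flags about 1 group in 20 by chance. Of 88 groups searched 12 were flagged, where 4.4 would be flagged at that rate, and 7 of the 12 concerned control replicate 1. Its class scores below reuse the same reads, so these flags are not independent of each other and the rate is only a rough guide. That library had 8.65% of its in-peak reads in multi-gene peaks, against 7.35% to 7.62% in the other control libraries. Its excess of multi-gene over single-gene peaks was 0.2519, against 0.2723 to 0.2839, and its excess of divergent over single starts was 0.2063, against 0.2905 to 0.3135. Relative to peaks near no gene end, its multi-gene peaks stood at 1.2074 and its single-gene peaks at 0.9555, against 0.7862 to 0.9073 and 0.5139 to 0.6327 in the others. Normalised counts of the same library were 72.8 at CRTC2/DENND4B, where the other controls had 24.6 to 39.1, and 61.1 at IGHMBP2/MRPL21, where they had 35.7 to 42.1.

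Among knockdown libraries, replicate 3 held 39.2 at DDX28/DUS2, where the others held 23.1 to 27.4, and 17.8 at BANF1/EIF1AD, where they held 27.0 to 31.1. Replicate 6 held 95.1 at MRPS12/SARS2, against 107.7 to 115, and 133 at H2AC20/H2AC21/H2BC21, against 155 to 168. Replicate 1 held 66.7 at BAD/GPR137/PLCB3, against 46.6 to 51.4. The causes of these deviations were not tested.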

How the results depend on the processing

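Under TMM or total-count scaling, no batch covariate and no independent filtering, the counts of lost multi-gene peaks stayed between 289 and 344, and edgeR gave 375. The 359 multi-gene and 1276 single-gene calls became 143 and 644 with the replicate block, 217 and 772 with at least 10 counts in every library, 19 and 214 at a fold change over 2, and 181 and 768 at an adjusted p under 0.01. In these 4 settings the 318 losses became 121, 174, 14 and 154. The 41 gains became 22 with the block, 5 over 2-fold, 27 at the lower p, 27 within 500 bp, 12 where the peak itself holds the ends and 21 measured from the peak centre. At divergent starts the 135 losses became 50 with the block, 76 with the count filter, 5 over 2-fold and 66 at the lower p. With the block, 8.92% of multi-gene and 8.68% of single-gene peaks were lost, so that the difference in share fell to 0.24 percentage points. The block pairs libraries by number only: deviations of same-numbered libraries correlated at -0.064 to 0.014, and the numbers were not taken as pairs. The library score of -0.0686 was -0.044 with the count filter and -0.0518 where the peak holds the ends. Calls within batch 1 (20) were 136 with edgeR and 0 to 7 without 1 library, and those within batch 2 (161) were 294 with edgeR and 67 to 126 without 1 library. Over both batches, leaving out 1 library gave 220 to 322 losses and 33 to 42 gains. BRCA2/ZAR1L turned to 0.0026 with the count filter. Of 39 named peaks, 31 kept call and direction in every setting that included the peak. Of 47 further called peaks, 15 kept their call in every setting that included the peak and 0 turned direction. The median at 2 last ends ran from -0.047 to 0.0626 when 1 library was left out. The cause of these changes was not tested.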
